A study of Rattus norvegicus with 9 samples.

Results

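The genes described here encode the digestive enzymes of the exocrine pancreas, the proteins of the granules that store them and the transcription factors of the acinar cells that make them. The list was set by gene name and held 33 genes, of which 29 had a probe set of their own among 14217 genes measured on the arrays. Amy1a, Rbpjl, Try4 and Rnase1 had no single-gene probe set of that name, and their levels were not analysed here. Where a gene had several probe sets, its brightest was used. RNA came from pancreatic islets of Wistar rats, 5 obese rats given a high-caloric cafeteria diet and 4 lean rats given standard chow, at a label of 30 days, with 1 Affymetrix Rat Genome 230 2.0 array per sample. No genetic change, age or sex is given in the labels used here, and they do not say whether islets of several rats were pooled, so the p-values reflect only how far these samples spread, which may be technical. All values are log2 RMA values (RMA subtracts background, quantile-normalizes the arrays and combines a set's probes into 1 value), and all differences are cafeteria minus chow.

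Acinar cells surround the islets and are the main cell type of the pancreas. They store inactive precursors of proteases, together with lipases, amylase and a nuclease, in zymogen granules and release them into the ducts. Their identity rests on the PTF1 complex, in which Ptf1a pairs with Rbpjl, and on Bhlha15 and Nr5a2. Islets are freed from this tissue with collagenase, and acinar cells that stay attached to them bring their RNA into an islet sample, which is called carry-over below. In these bulk samples, fewer acinar cells and less acinar RNA per cell cannot be told apart.

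The hormone genes that define islets were among the brightest probe sets of every array. Ins2 lay between 14.16 and 14.23 in cafeteria islets and between 14.13 and 14.24 in chow islets, and Gcg between 13.44 and 13.77 against 13.59 and 13.70. The value of a probe set is its own brightness, which depends on its probes, so levels of different genes are not compared. Bright means a mean over the 9 arrays above the 90th percentile of all probe sets (8.48), dim a mean below the 50th percentile (5.29), and middle the range between them. Of the 29 genes 1 was bright, 18 were middle and 10 were dim. RMA values carry no detection call, and differences of dim probe sets are compressed.

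Promoters of these genes are shown as a description of their sequence. Most of the genes varied together from array to array, and whether promoter sequence has a part in that was not tested. RefSeq promoter windows of 300 bases, from 250 bases before to 50 bases after the annotated start, were found for 26 of the 33 genes, of which 24 were measured. The windows were searched on both strands for CACCTG, the E box that PTF1 can bind, and for TTTCCCA, a box for the RBPJ-type subunit of PTF1. CACCTG was present in 15 of the 26 windows (57.7%), against 18.8% of all 33469 promoter windows. TTTCCCA was present in 5 of the 26 (19.2%), against 8.23%. Both were present in 4 windows (15.4%), those of Prss1, Cela3b, Cel and Ctrb1, against 1.48% of all windows. The nearest pair of these boxes lay 4 bases apart in Ctrb1 and 14 bases apart in Cel, against 52 in Prss1 and 58 in Cela3b. CAGCTG was found in 5 of the 26 windows (19.2%; 15.1% of all), AAGGTCA, a site for Nr5a2, in 3 (11.5%; 4.61% of all), and CATATG, a site for Bhlha15, in 1 (3.85%; 4.11% of all). No matches overlapped in these windows, and each match only describes the letters of a window. The windows with both boxes are printed first, then those of the trypsinogens Prss2 and Prss3bl1, shown for comparison with Prss1. The Prss2 and Prss3bl1 windows hold CACCTG without TTTCCCA. Among the genes that followed the other acinar genes most closely, Cela3b holds both boxes, and Ctrc, Pnliprp1 and Cpb1 hold CACCTG without TTTCCCA. In Ctrc and Pnliprp1 the match lies after the annotated start. Cpa1 and Pnlip also followed closely (r = 0.95 in both) and hold neither box. Bhlha15 (r = 0.38), Klk1 (r = 0.015) and Aqp12a (r = 0.58) followed less closely and hold CACCTG. Capitals mark CACCTG or TTTCCCA on either strand.
Ctrb1 promoter, GRCr8 chr19:56566929-56567228, minus strand: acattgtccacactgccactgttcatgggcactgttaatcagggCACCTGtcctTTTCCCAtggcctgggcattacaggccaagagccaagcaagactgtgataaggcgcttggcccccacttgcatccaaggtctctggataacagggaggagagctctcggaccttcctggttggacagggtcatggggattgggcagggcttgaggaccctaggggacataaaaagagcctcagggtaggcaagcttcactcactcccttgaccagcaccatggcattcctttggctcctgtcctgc
Cel promoter, GRCr8 chr3:32288970-32289269, minus strand: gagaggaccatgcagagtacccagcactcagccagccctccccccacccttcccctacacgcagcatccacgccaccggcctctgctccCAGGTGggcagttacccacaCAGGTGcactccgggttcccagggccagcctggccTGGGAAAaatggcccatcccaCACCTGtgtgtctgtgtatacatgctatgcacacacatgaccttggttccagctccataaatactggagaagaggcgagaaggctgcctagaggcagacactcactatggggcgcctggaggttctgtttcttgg
Prss1 promoter, GRCr8 chr4:71330999-71331298, plus strand: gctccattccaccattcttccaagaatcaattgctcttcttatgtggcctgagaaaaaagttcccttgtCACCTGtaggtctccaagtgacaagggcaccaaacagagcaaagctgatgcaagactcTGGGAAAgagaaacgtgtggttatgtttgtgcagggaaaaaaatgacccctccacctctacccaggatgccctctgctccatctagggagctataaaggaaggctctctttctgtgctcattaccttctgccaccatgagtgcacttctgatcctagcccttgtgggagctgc
Cela3b promoter, GRCr8 chr5:154920284-154920583, minus strand: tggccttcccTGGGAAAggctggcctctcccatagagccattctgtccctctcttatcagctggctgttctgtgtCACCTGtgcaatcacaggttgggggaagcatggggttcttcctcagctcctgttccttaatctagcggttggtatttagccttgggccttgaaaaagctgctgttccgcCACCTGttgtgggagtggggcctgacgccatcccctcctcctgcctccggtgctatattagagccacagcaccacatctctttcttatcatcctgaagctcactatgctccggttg
Prss2 promoter, GRCr8 chr4:71244714-71245013, plus strand: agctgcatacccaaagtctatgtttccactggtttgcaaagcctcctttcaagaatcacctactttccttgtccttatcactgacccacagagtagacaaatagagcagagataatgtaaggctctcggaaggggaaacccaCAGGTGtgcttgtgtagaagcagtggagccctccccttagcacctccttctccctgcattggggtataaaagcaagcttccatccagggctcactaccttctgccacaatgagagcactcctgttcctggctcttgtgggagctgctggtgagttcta
Prss3bl1 promoter, GRCr8 chr4:70770237-70770536, minus strand: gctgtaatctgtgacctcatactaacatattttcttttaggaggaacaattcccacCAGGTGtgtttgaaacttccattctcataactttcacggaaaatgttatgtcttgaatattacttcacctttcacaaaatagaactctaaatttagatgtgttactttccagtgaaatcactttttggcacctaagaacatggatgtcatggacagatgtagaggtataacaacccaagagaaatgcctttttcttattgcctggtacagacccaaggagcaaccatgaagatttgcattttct

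The level of acinar transcripts differed more between arrays of the same diet than between the diets. Averaged over the 29 genes as differences from their 9-array means, it was 0.48, 0.17, 0.52, 0.50 and -0.74 in cafeteria replicates 1 to 5, and 0.14, -0.030, -0.48 and -0.57 in chow replicates 1 to 4. By this average over the 29 genes, cafeteria replicate 5 was lowest of all 9 arrays and cafeteria replicates 1, 2, 3 and 4 were highest. The chow arrays lay between them, with chow replicate 1 (0.14) close to cafeteria replicate 2 (0.17). The mean was 0.19 ± 0.54 (SD, n = 5) under the cafeteria diet and -0.23 ± 0.34 (SD, n = 4) under chow, and the difference of 0.42 was smaller than the SD of the cafeteria group. Without cafeteria replicate 5 the difference was 0.65. It was 0.40 with RNA quality as a covariate, measured as the 3-prime minus 5-prime difference of the actin and Gapdh control probe sets (1.21 to 1.74 on cafeteria arrays, 1.42 to 1.8 on chow arrays).

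The mean of the middle genes swung more between arrays than that of the dim genes, with exceptions in both classes. The dim Gp2 and Prss2 ranged over 1.99 and 1.88 across the 9 arrays, and the middle Aqp12a and Bhlha15 over 0.32 and 0.59. The 18 middle members averaged 0.69, 0.15, 0.63, 0.61 and -1.05 in cafeteria replicates 1 to 5, and 0.24, 0.066, -0.62 and -0.72 in chow replicates 1 to 4. The 10 dim members averaged 0.073, 0.15, 0.30, 0.31 and -0.10 in cafeteria replicates 1 to 5, and -0.058, -0.21, -0.22 and -0.25 in chow replicates 1 to 4. Of these dim averages 4 of 5 in cafeteria islets lay above every chow array. Of the middle averages 3 of 5 did, and chow replicate 1 (0.24) stood above cafeteria replicates 2 (0.15) and 5 (-1.05). Of the 29 genes 19 had a within-group SD larger than that of 95% of all genes, and the median SD was 0.59 against 0.15 over all genes.

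**Figure D1:**
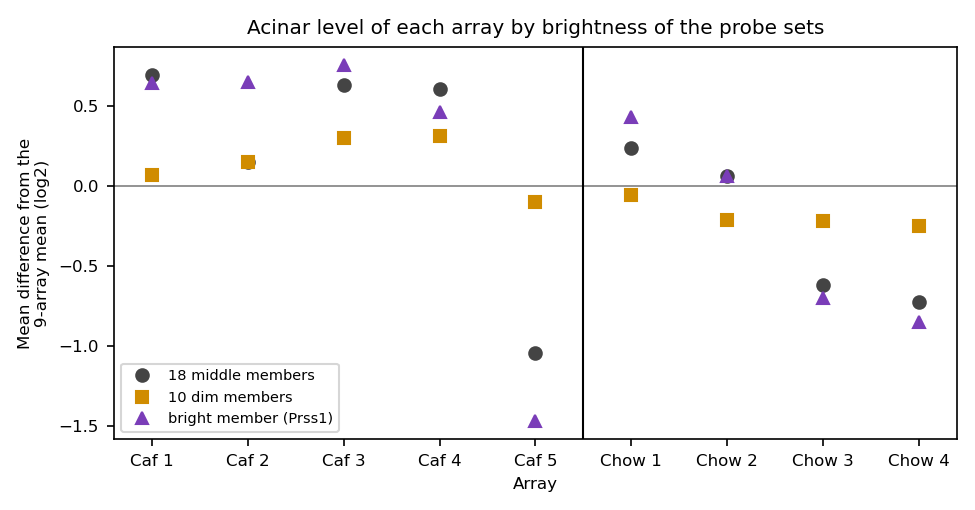
Mean difference of the bright (1 gene, Prss1), middle (18 genes) and dim (10 genes) acinar probe sets from their 9-array means (log2, vertical axis) on each array, with cafeteria arrays left of the line and chow arrays right. Cafeteria replicate 5 is lowest for the bright and middle genes (-1.47 and -1.05), whereas its dim genes stand at -0.10, above every chow array except replicate 1.

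No acinar gene passed the test. By limma with Benjamini-Hochberg adjustment over all 31042 probe sets, 0 of 29 genes reached an adjusted p of 0.05, where 0% of all genes did, and their adjusted p lay between 0.844 and 0.992. Cafeteria means exceeded chow means in 27 of the 29 genes, where 50.8% of all genes were higher. The median difference was 0.49, against 0.0025 over all genes. It was 0.52 over the middle and 0.28 over the dim members. Single arrays moved these medians: over all 29 genes it was 0.29 without chow replicate 4 and 0.67 without cafeteria replicate 5, and over the middle genes 0.33 and 0.91. At an unadjusted p under 0.05 there were 5 higher genes (3.42% of all genes), Prss3bl1, Prss3, Prss2, Cuzd1 and Bhlha15, and 0 lower ones (3.28% of all genes). The groups did not overlap in 2 genes, Prss3 and Prss3bl1, both higher (1.33% of all genes). Without cafeteria replicate 5, 17 genes were higher at an unadjusted p under 0.05 (2.62% of all genes) and 11 were higher with groups that did not overlap (1.99% of all genes), while 0 passed the adjusted test (limma adjusted p of at least 0.930). That array had the lowest acinar level, as seen in these same data. The members vary together over the arrays (median r of 0.84 over pairs of bright and middle members), so these counts are not of independent genes.

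**Figure D2:**
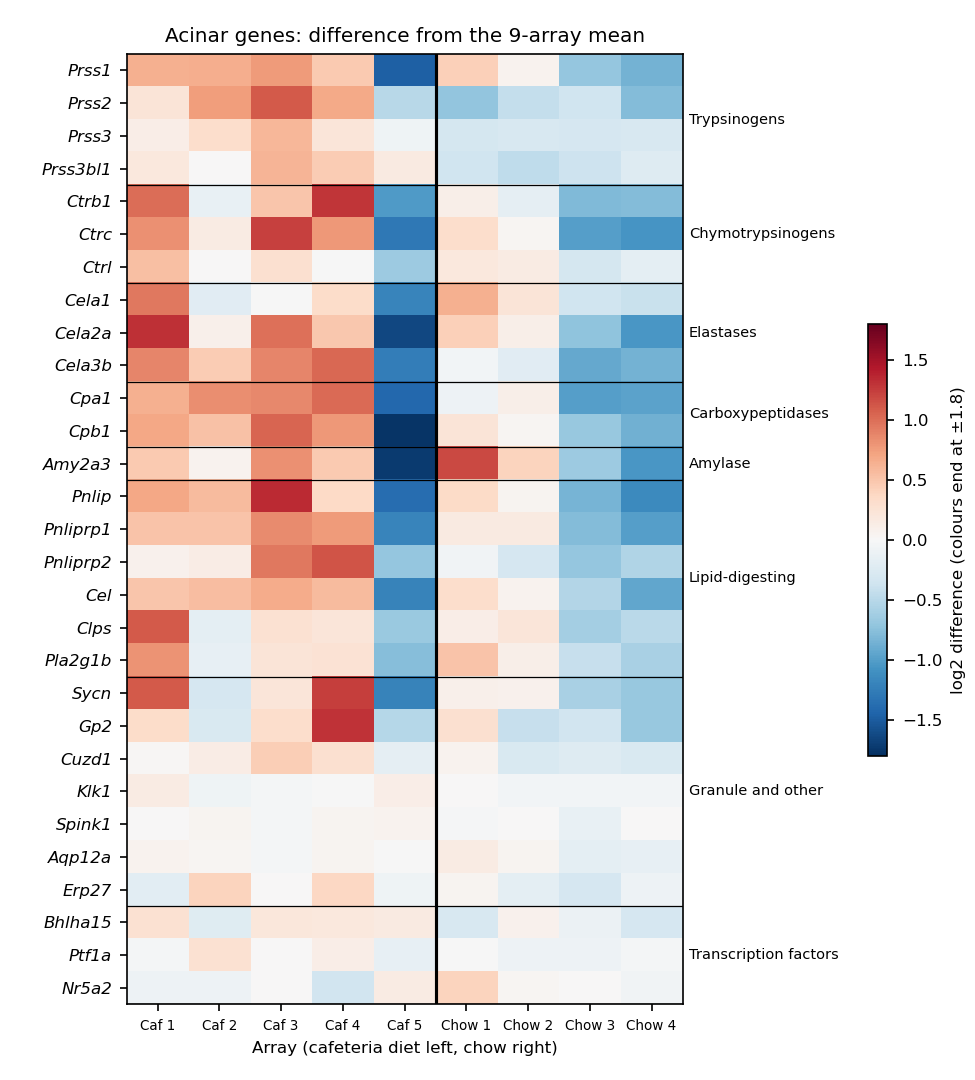
Difference of each of the 29 acinar genes (down the page, by role) from its own 9-array mean (colour, log2) on each array (across), with 5 cafeteria arrays left of the line and 4 chow arrays right. Most enzymes share 1 pattern, low in cafeteria replicate 5 and in chow replicates 3 and 4, while Prss2, Prss3 and Prss3bl1 are low on all chow arrays. Klk1, Aqp12a and the brightest probe set of Spink1 hardly vary.

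Among the trypsinogens, the precursors of the protease that activates the other zymogens, Prss1 followed the acinar level of the array. Prss1 had 9.27, 9.28, 9.38, 9.09 and 7.15 in cafeteria islets and 9.05, 8.69, 7.92 and 7.77 in chow islets. In 4 of 5 cafeteria islets it lay above every chow islet, and in replicate 5 below all of them. The means were 8.83 ± 0.95 (SD, n = 5) and 8.36 ± 0.61 (SD, n = 4), a difference of 0.47 (SE 0.45; 95% interval -0.53 to 1.47; limma adjusted p = 0.879), which was 0.28 without chow replicate 4 and 0.89 without cafeteria replicate 5.

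The other 3 trypsinogen-family members did not follow Prss1 over the 4 chow arrays. There the correlation with the mean of the other acinar genes was 0.999 in Prss1, -0.056 in Prss2, -0.61 in Prss3 and -0.62 in Prss3bl1. Among the cafeteria arrays, replicate 5 was the lowest in Prss2 and Prss3, as in Prss1. Prss3bl1 had 5.06, 4.88, 5.48, 5.33 and 5.03 in cafeteria islets, against 4.52, 4.42, 4.51 and 4.64 in chow islets. Every cafeteria value lay above every chow value. The means were 5.16 ± 0.24 (SD, n = 5) and 4.52 ± 0.091 (SD, n = 4), a difference of 0.64 (SE 0.12; 95% interval 0.37 to 0.90; limma unadjusted p = 2.76e-04, adjusted p = 0.844). Prss3 had 5.17, 5.36, 5.65, 5.27 and 4.97 in cafeteria islets, against 4.73, 4.76, 4.75 and 4.76 in chow islets. The 4 chow values lay within 0.025 of each other, although the Prss1 values of the same 4 arrays spread over 1.28. Prss3 differed by 0.53 (SE 0.12; 95% interval 0.27 to 0.79; limma unadjusted p = 9.46e-04, adjusted p = 0.844). Prss2 had 5.08, 5.61, 5.95, 5.52 and 4.34 in cafeteria islets, against 4.14, 4.43, 4.49 and 4.07 in chow islets. Its groups overlapped through cafeteria replicate 5 alone. Prss2 had the largest difference of the 29 genes, 1.02 (SE 0.27; 95% interval 0.42 to 1.62, or 1.33-fold to 3.08-fold; limma unadjusted p = 0.0035, adjusted p = 0.844). All 3 probe sets were dim, with chow means below the array medians of 5.28 to 5.32. The 4 trypsinogen genes lie in 1 stretch of rat chromosome 4 in RefSeq, with Prss3b, Try5, Try10 and other loci between them, and are related in sequence. How far their probe sets read each other's transcripts was not tested.

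**Figure D3:**
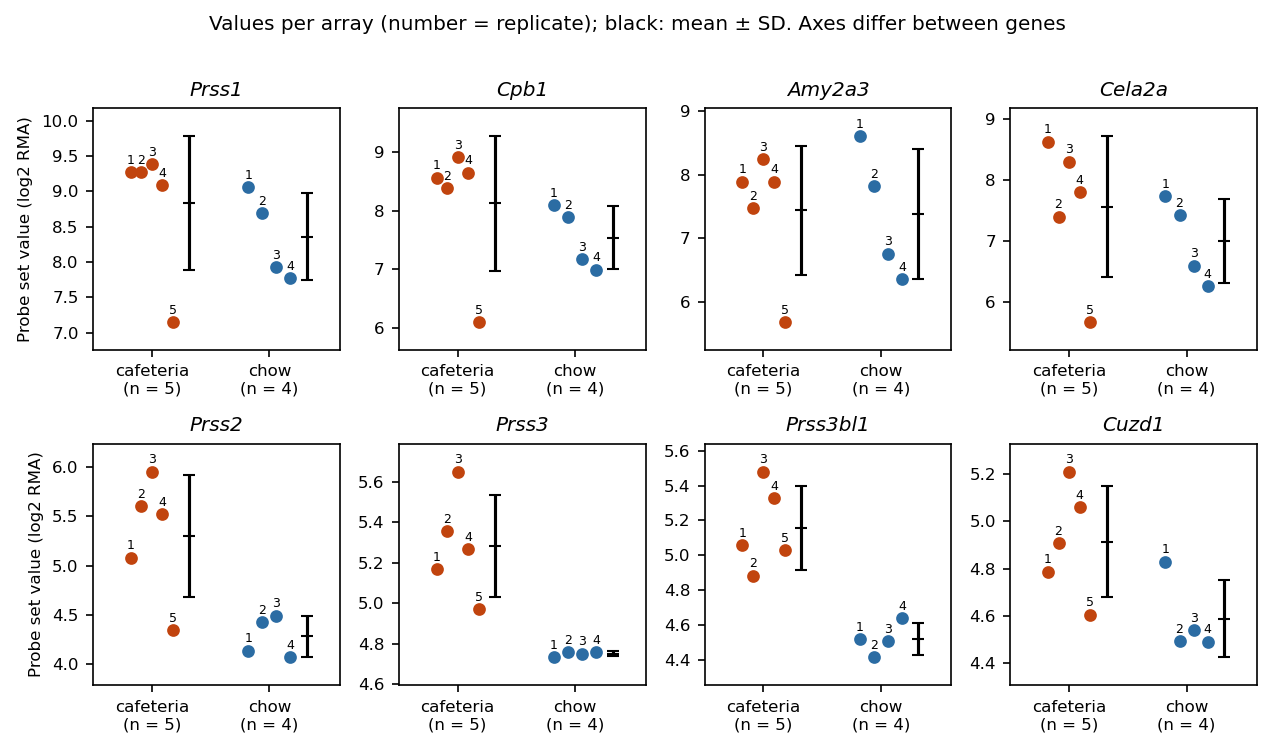
Probe set values (log2 RMA) of 8 acinar genes on each array, cafeteria left (n = 5) and chow right (n = 4), with replicate numbers and the mean ± SD in black; the vertical axes differ. In the upper row (Prss1, Cpb1, Amy2a3, Cela2a) cafeteria replicate 5 lies below every chow array, whereas in Prss3 and Prss3bl1 all 5 cafeteria values lie above all 4 chow values.

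The other proteases gave wide ranges in both groups. Cpb1, a carboxypeptidase for basic residues, had 8.56, 8.39, 8.92, 8.65 and 6.10 in cafeteria islets, against 8.09, 7.89, 7.18 and 6.99 in chow islets. It differed by 0.58 (SE 0.51; limma adjusted p = 0.872), and cafeteria replicate 5 was again below all others. Without that array the difference was 1.09, and without cafeteria replicate 3 it was 0.385. Cpa1, a carboxypeptidase for aromatic and aliphatic residues, ranged from 5.11 to 7.55 under the cafeteria diet and from 5.53 to 6.63 under chow, a difference of 0.88 (SE 0.47). Of the elastases, Cela2a had 8.63, 7.40, 8.30, 7.80 and 5.67 in cafeteria islets, against 7.74, 7.43, 6.59 and 6.26 in chow islets, so that the groups overlapped widely (difference 0.56, SE 0.54). Cela1 had 8.25, 7.09, 7.29, 7.63 and 6.12 in cafeteria islets, against 7.94, 7.53, 6.94 and 6.90 in chow islets. Its difference of -0.05 (SE 0.37; 95% interval -0.88 to 0.77) had no settled sign, as it was 0.24 without cafeteria replicate 5 and 0.15 without chow replicate 1. Cela3b ranged from 4.84 to 7.11 under the cafeteria diet and from 5.16 to 6.04 under chow, a difference of 0.90 (SE 0.42), and its 4 other cafeteria values lay above every chow value. The chymotrypsinogen Ctrb1 differed by 0.74 (SE 0.42), Ctrc, which also cleaves trypsinogens, by 0.77 (SE 0.48), and the chymotrypsin-like Ctrl by 0.0746 (SE 0.21). Without cafeteria replicate 5 the differences were 1.33 in Cpa1, 1.03 in Cela2a and 1.17 in Ctrc, and Cela2a was 0.29 without cafeteria replicate 1.

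Amylase had the largest within-group SD of the list. Amy2a3, the starch-splitting pancreatic amylase, had 7.89, 7.47, 8.24, 7.89 and 5.69 in cafeteria islets, against 8.6, 7.82, 6.76 and 6.36 in chow islets. Chow replicate 1 had the highest value of all arrays, and 0 of 5 cafeteria values lay above it. The means were 7.44 ± 1.01 (SD, n = 5) and 7.38 ± 1.02 (SD, n = 4), a difference of 0.0527 (SE 0.56; 95% interval -1.18 to 1.29; limma adjusted p = 0.992). Its within-group SD of 1.02 exceeded that of 99.9% of all genes, and the sign of the difference changed with single arrays left out (-0.29 without chow replicate 4, 0.49 without cafeteria replicate 5).

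The 6 genes of lipid digestion were all higher in the cafeteria mean, with differences between 0.18 and 0.72. Pnliprp2, a lipase-related enzyme that splits galactolipids, had 5.63, 5.68, 6.5, 6.68 and 4.85 in cafeteria islets, against 5.48, 5.24, 4.86 and 5.01 in chow islets. In 4 of 5 cafeteria islets it lay above every chow islet (difference 0.72, SE 0.33; limma unadjusted p = 0.050, adjusted p = 0.844). Pancreatic lipase, Pnlip, ranged from 5.72 to 8.44 and from 5.94 to 7.44 (difference 0.72, SE 0.49), and Pnliprp1, its inactive relative, differed by 0.65 (SE 0.41). Cel, the lipase that bile salts activate, ranged from 5.96 to 7.83 and from 6.22 to 7.47 (difference 0.49, SE 0.39). Clps, the cofactor that anchors lipase to fat droplets, differed by 0.34 (SE 0.31) and the phospholipase Pla2g1b by 0.18 (SE 0.31). Without cafeteria replicate 5 the differences were 1.14 in Pnlip, 1.02 in Pnliprp1, 0.85 in Cel, 0.54 in Clps and 0.39 in Pla2g1b. Cel was 0.27 without chow replicate 4, Pnlip 0.46 without cafeteria replicate 3, and Clps 0.10 and Pla2g1b -0.0054 without cafeteria replicate 1.

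Some granule proteins and other secreted members varied widely between arrays, and others were nearly flat. Sycn, of the granule membrane, ranged from 4.68 to 7.13 under the cafeteria diet and from 5.20 to 5.98 under chow (difference 0.49, SE 0.45). Gp2, the main membrane glycoprotein of the granules, ranged from 3.96 to 5.78 and from 3.79 to 4.76 (difference 0.52, SE 0.33). Without cafeteria replicate 4, in which both were highest, Sycn differed by 0.23 and Gp2 by 0.26, and without cafeteria replicate 5 Sycn differed by 0.84. Cuzd1, also of the granule membrane, had 4.79, 4.91, 5.21, 5.06 and 4.60 in cafeteria islets, against 4.83, 4.49, 4.54 and 4.49 in chow islets. Only chow replicate 1 overlapped the cafeteria values, and the difference was 0.33 (SE 0.13; limma unadjusted p = 0.0263, adjusted p = 0.844). The kallikrein Klk1, the water channel Aqp12a and the disulfide isomerase relative Erp27 differed by 0.063 (SE 0.070), 0.055 (SE 0.080) and 0.23 (SE 0.14). Spink1, the trypsin inhibitor of the granules, lay between 4.37 and 4.48 in cafeteria islets and between 4.28 and 4.42 in chow islets on its brightest probe set. Another of its 3 probe sets, looked at after its values were seen, had 3.98, 3.42, 4.38, 4.62 and 3.38 in cafeteria islets, against 3.42, 3.39, 3.4 and 3.39 in chow islets. It was flat on all chow arrays and in cafeteria replicates 2 and 5 and higher in the other 3 (difference 0.56, SE 0.24; limma unadjusted p = 0.0397, adjusted p = 0.844). The remaining probe set differed by 0.34 (SE 0.16; limma unadjusted p = 0.0623, adjusted p = 0.844). Both of these followed the mean acinar profile with r = 0.75, against 0.11 for the brightest. The probe sets of Spink1 thus did not agree on the size of the difference.

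The 3 measured transcription factors ranged over less of the scale than most enzymes. Bhlha15, which sets up the secretory apparatus of acinar and other secretory cells such as plasma cells, had 7.59, 7.09, 7.51, 7.49 and 7.48 in cafeteria islets, against 7.02, 7.39, 7.2 and 7.0 in chow islets. In 4 of 5 cafeteria islets, replicate 5 among them, it lay above every chow islet. The difference was 0.28 (SE 0.12; 95% interval 0.018 to 0.54; limma unadjusted p = 0.0381, adjusted p = 0.844). Ptf1a, the defining factor of acinar cells, had 3.82, 4.14, 3.86, 3.98 and 3.71 in cafeteria islets, against 3.86, 3.76, 3.77 and 3.83 in chow islets. It was among the dimmest 12.1% of probe sets, and its difference of 0.0965 (SE 0.0890) stayed within the spread. Nr5a2, a nuclear receptor of acinar cells, had 4.54, 4.54, 4.65, 4.30 and 4.78 in cafeteria islets, against 5.05, 4.67, 4.65 and 4.57 in chow islets. It differed by -0.17 (SE 0.12; limma adjusted p = 0.849), by -0.068 without chow replicate 1, and its other 2 probe sets by 0.0186 and 0.0445.

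How closely a gene followed the acinar level of its array was described by its correlation over the 9 arrays with the mean of the other 28 genes, which shares their arrays and is given with no p. The correlation was over 0.9 in 10 genes, between 0.93 and 0.99. Ctrc (r = 0.99, Spearman rho = 0.97), Cela3b (r = 0.98, rho = 0.93), Pnliprp1 (r = 0.98, rho = 1.0) and Cpb1 (r = 0.97, rho = 1.0) stood highest, and without the 2 arrays farthest from the median their r was 0.95 to 0.98. It was lower in Prss2 (r = 0.72, rho = 0.70), Prss3 (r = 0.65, rho = 0.63) and Prss3bl1 (r = 0.52, rho = 0.63). This was not particular to them, as Aqp12a (r = 0.58) and Ptf1a (r = 0.52) stood near them. Erp27 (r = 0.44), Bhlha15 (r = 0.38), Spink1 (r = 0.11 on its brightest probe set), Klk1 (r = 0.015) and Nr5a2 (r = -0.32) stood lower still. Over the 171 pairs of the 19 bright and middle members the median r was 0.84, and over all 406 pairs 0.59.

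**Figure D4:**
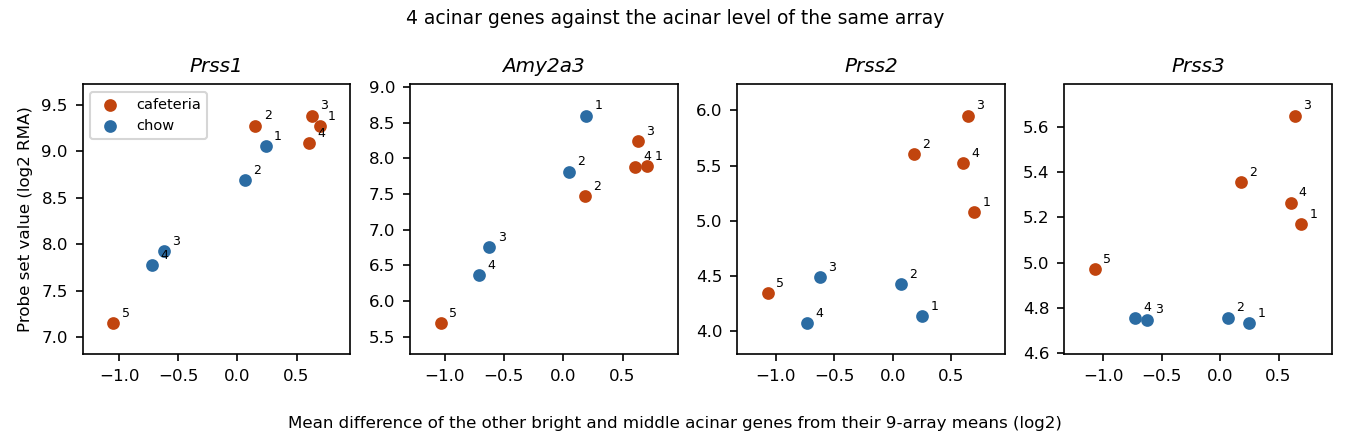
Probe set values (log2 RMA, vertical) of Prss1, Amy2a3, Prss2 and Prss3 against the mean difference of the other bright and middle acinar genes from their 9-array means (log2, horizontal), 1 point per array with its replicate number. Prss1 lies along a common line in both diets, chow replicate 1 of Amy2a3 (8.6) lies above cafeteria replicate 2 (7.47), the only cafeteria array at its acinar level, and the 4 chow points of Prss3 are flat between 4.73 and 4.76.

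The diets were also compared with the acinar level of the array as a covariate in limma. The covariate was the mean profile of the 19 bright and middle members, leaving out the gene in question. This fit was added after the data were seen, and the covariate is built from genes of the same list. The differences of those 19 genes are thereby set against each other and balance near 0 by construction, so that a value of one of them is relative to the other 18 and the counts over all 29 say nothing of the diet. Of the 10 dim genes, which are not in the covariate, 9 were higher (49.2% of all genes), with a median of 0.20, against 0.28 without the covariate. For them the covariate lay between -0.73 and 0.25 on chow arrays. Only cafeteria replicate 2 (0.18) lay in that range, with replicates 1, 3 and 4 above it (0.60 to 0.69) and replicate 5 below it (-1.07). The fit thus extends a straight line past the chow arrays, and whether dim probe sets follow such a line was not tested. No gene passed (0% of all genes; limma adjusted p of the members at least 0.870). At an unadjusted p under 0.05, 4 of the 29 genes were higher (3.21% of all genes) and 2 were lower (2.80% of all genes). The higher ones were Prss2 (0.78, SE 0.23), Prss3bl1 (0.60, SE 0.13), Prss3 (0.46, SE 0.12) and Cela3b (0.38, SE 0.11). The lower ones were Amy2a3 (-0.71, SE 0.19; 95% interval -1.13 to -0.29) and Cela1 (-0.53, SE 0.18; 95% interval -0.94 to -0.12). Each of these 6 kept its sign with any single array left out. Amy2a3 then differed by -1.07 to -0.47, with the smallest size without chow replicate 1 and the largest without cafeteria replicate 5, and Prss2 by 0.58 to 1.31 with the same 2 arrays at the ends. Cela3b reached 0.63 without cafeteria replicate 5. Prss1, Cpb1, Cel and Clps differed by -0.10, -0.0787, 0.00092 and -0.0051 in this fit.

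**Figure D5:**
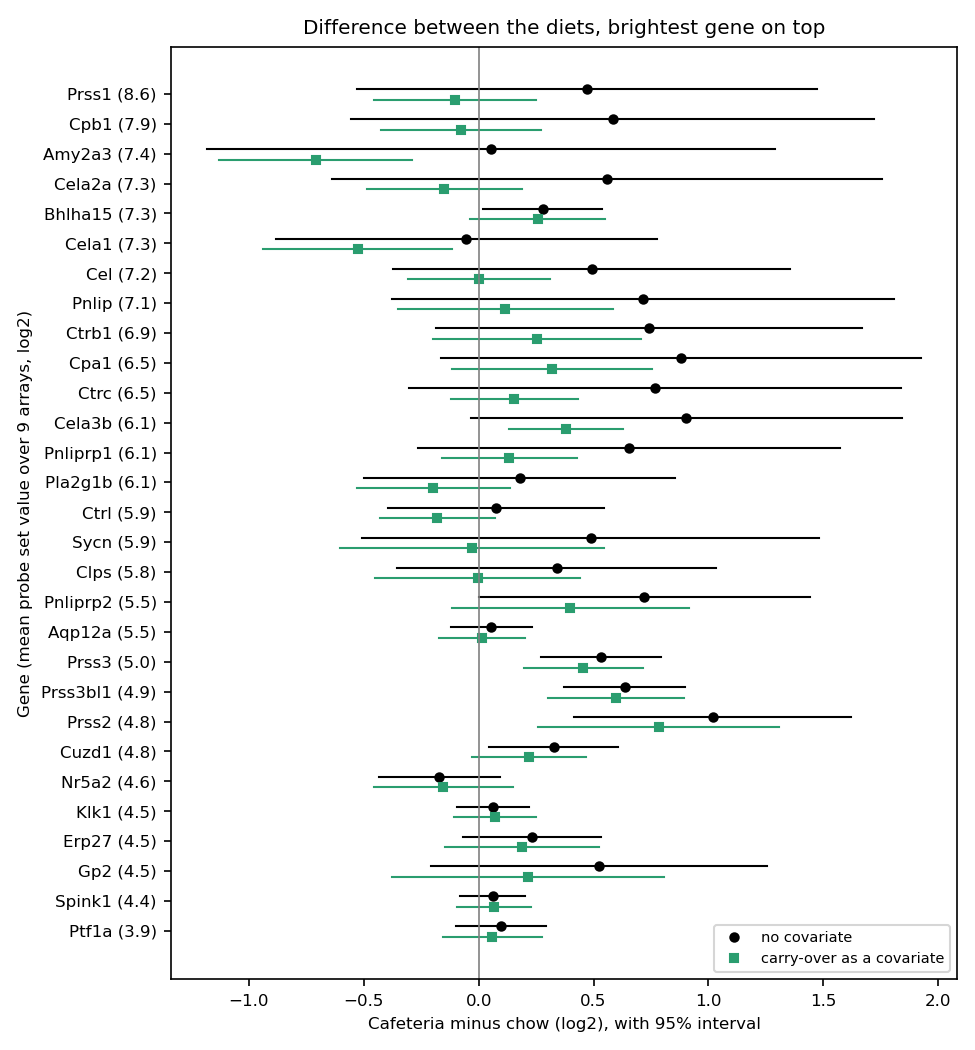
Difference between the diets (cafeteria minus chow, log2, with 95% intervals) for the 29 acinar genes, ordered by the mean value of the probe set in brackets, without a covariate (black circles) and with the acinar level of the array as a covariate (green squares). Without the covariate 27 of 29 points lie above 0; with it the intervals of Prss1 and of the middle genes other than Bhlha15 and Aqp12a are narrower, Amy2a3 stands at -0.71 and the 3 dim trypsinogens stay between 0.46 and 0.78.

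Outside the list, the 10 named genes whose profile over the 9 arrays was most like the mean acinar profile included Prss3b, another trypsinogen of the chromosome 4 stretch, and Rnase1l2, a relative of the pancreatic ribonuclease. Prss3b (r = 0.94) had 8.70, 7.63, 9.0, 8.02 and 5.70 in cafeteria islets, against 8.25, 7.87, 6.89 and 6.52 in chow islets. Rnase1l2 (r = 0.93) had 9.31, 7.99, 8.78, 8.13 and 6.29 in cafeteria islets, against 8.25, 8.0, 6.95 and 7.16 in chow islets. Both were lowest in cafeteria replicate 5, and they differed by 0.43 (SE 0.61) and 0.51 (SE 0.53). The other 8 were Mocs3, Ccbe1, Ppwd1, Hkdc1, Tekt3, Pappa2, Rbm7 and Tnfaip8l1, with r of 0.90 to 0.96. They ranged over only 0.25 to 0.68 across the arrays, against 3.30 in Prss3b.

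In a further list of acinar and granule genes, set by name, the median difference lay near 0. Of 36 further acinar and granule genes 29 were measured, 16 were higher and 13 lower (50.8% of all genes were higher), the median difference was 0.015, and 2 were higher at an unadjusted p under 0.05 (3.42% of all genes), Fgl1 (0.24, SE 0.088) and Tmem97 (0.25, SE 0.092). Serpini2, a serpin of the pancreas, differed by 0.16 (SE 0.077). Over the arrays the correlation with the mean acinar profile was 0.58 in Fgl1, -0.037 in Tmem97 and 0.50 in Serpini2. The mean level of the list was -0.056 to 0.059 in cafeteria islets and -0.075 to 0.090 in chow islets. How far its genes read acinar cells in these samples was not tested, and Prss3b and Rnase1l2 are not in it. The 4 measured Reg genes, acinar proteins of injury and regeneration, were all higher in the mean (Reg3a 0.71, SE 0.49; Reg3b 0.45, SE 0.53; Reg1a 0.35, SE 0.34), but their mean level stood out in cafeteria replicate 4 alone (1.65 above the 9-array mean, where the other 8 arrays lay between -0.37 and -0.053). Genes of the secretory pathway of the endoplasmic reticulum, which acinar and beta cells share, were higher in 33 of 38 (50.8% of all genes), with a median of 0.092 and 5 higher at an unadjusted p under 0.05 (3.42% of all genes). The lowest p were those of Dnajb11 (0.52, SE 0.17), Creld2 (0.46, SE 0.17) and Sec23b (0.30, SE 0.11). The mean level of the 38 genes was -0.023 to 0.084 in cafeteria islets and -0.19 to 0.050 in chow islets, where replicate 1 was lowest. The 38 genes share the arrays, so their count is not of independent genes. None of these genes passed the adjusted test by limma, where 0% of all genes did.

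Markers of other cells were lower in the cafeteria mean for most lists. Of all genes 49.2% were lower, 3.28% at an unadjusted p under 0.05. Immune markers were lower in 13 of 15, 6 of them at an unadjusted p under 0.05, and their mean level was -0.35 to -0.075 in cafeteria islets and -0.099 to 1.09 in chow islets, where replicate 3 was highest. Cd74, a chain of antigen presentation, differed by -1.01 (SE 0.26), Coro1a of white blood cells by -1.41 (SE 0.46) and the lysozyme Lyz2 by -0.56 (SE 0.20). Ductal markers were lower in 15 of 19, with -0.17 to -0.012 in cafeteria islets and -0.20 to 0.65 in chow islets, where replicate 1 was highest. Tff3 differed by -0.50 (SE 0.11), the keratin Krt8 by -0.31 (SE 0.12) and the cadherin Cdh1 by -0.32 (SE 0.17). Lower means were also found for 10 of 12 endothelial markers (Tie1 -0.23, Icam2 -0.24 and Flt1 -0.16), 9 of 11 of alpha, delta and PP cells (Rbp4 -0.47, Irx1 -0.37 and Sst -0.27) and 7 of 10 of beta cells (Glp1r -0.27, Pdx1 -0.25 and Neurod1 -0.13). The counts were 7 of 13 for stellate cells (Acta2 -0.58, Des -0.23 and Fn1 0.41), 5 of 8 for adipocytes (Fabp4 -0.22, Lpl -0.10 and Adipoq 0.098) and 3 of 6 for Schwann cells (Mbp -0.25, S100b 0.19 and Gfap -0.041). None of them passed the adjusted test by limma, and their part in the acinar differences was not tested.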

How the data were processed

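RNA of islets from 5 cafeteria-fed and 4 chow-fed rats, extracted with Trizol after collagenase digestion per the labels' protocols, was hybridised to 1 array per sample. The deposited values are log2 RMA values that the authors made per probe set, with affy 2.0.1, R 2.7.0 and RMA listed in the submitters' processing notes, their roles not stated. No further normalization was applied, since the array medians lay between 5.28 and 5.32. Of 31099 probe sets 57 controls were left out and 31042 were tested with limma 3.58.1 in R 4.3.3 (lmFit and eBayes, 2 groups, no covariate) with Benjamini-Hochberg adjustment over all of them. GEO's platform annotation gave 20826 probe sets 1 gene symbol (14217 genes) and 436 several, and 9780 were not named there; probe sets with several genes, such as one of Amy2a3 and Amy1, were not used, and Try4 was not assigned because RefSeq lists it as a synonym of more than 1 gene. Tables and figures were made with Python 3.11.15.

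Members and gene lists were chosen with earlier results of these data known. Values on every array are given for the 6 members with the highest means, the 6 with the smallest p, the 3 with the largest within-group SD and the factors Ptf1a, Bhlha15 and Nr5a2. Also named are the 10 other genes with the highest correlation with the mean member profile and the 3 genes with the smallest p of each other list. Alternatives tried were a second quantile normalization, centring on array medians, brighter probe sets alone, a robust trended variance, array weights, RNA quality as a covariate, other choices among probe sets of a gene, other thresholds and class borders, and leaving out each array. The acinar level as a covariate was added after the data were seen. The number of arrays limits the precision. Promoter sequences are RefSeq's on GRCr8. The test was checked on simulated data for the cafeteria and chow comparison (31042 probe sets): at an adjusted p of 0.05 it recovered 46 of 67 changes of 1.5-fold, 61 of 67 of 2-fold and 63 of 66 of 3-fold, and 8 of 178 calls were false. The changed probe sets were picked at random from all, and noise was drawn for each probe set on its own. The acinar members had a median within-group SD of 0.59, against 0.15 over all genes, so these rates do not apply to them.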

Additional observations from a re-analysis of the deposited data

Results flagged for a closer look

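Of 64 groups of values looked at, 10 had an end value far from the others by Dixon's criterion, where chance gives about 1 in 20. Cafeteria replicate 5 was that value in 7 of them, on the low side. It had 7.15 in Prss1 (next lowest cafeteria value 9.09), 5.11 in Cpa1 (7.17), 6.10 in Cpb1 (8.39), 4.84 in Cela3b (6.54), 4.89 in Pnliprp1 (6.59) and 5.96 in Cel (7.66). Its mean over all members was -0.74, with 0.17 as the next lowest. These 7 are not independent, since the genes share the array and vary together.

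The other 3 lay on other arrays. Bhlha15 was 7.09 in cafeteria replicate 2, with 7.48 as the next lowest cafeteria value. Chow replicate 1 stood highest in Cuzd1 (4.83, next 4.54) and in Klk1 (4.56, next 4.5).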

How the results depend on the processing

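No member passed the adjusted test under any alternative (lowest limma adjusted p 0.324), and 20 of 29 kept the sign of their difference in all of them. With the acinar level as a covariate, chosen after seeing the data, Prss1 (-0.10), Cpb1 (-0.079), Cela2a (-0.15), Amy2a3 (-0.71), Clps (-0.0051), Ctrl (-0.18), Pla2g1b (-0.20) and Sycn (-0.029) changed sign, and 2 members were lower at an unadjusted p under 0.05, against 0 without it. Cela1 was 0.13 with array weights. With 1 array left out, Cela1 ran from -0.30 to 0.24, Amy2a3 from -0.29 to 0.49, Ctrl from -0.052 to 0.25 and Pla2g1b from -0.0054 to 0.39. The count of 5 members higher at an unadjusted p under 0.05 was 1 with brighter probe sets alone, 13 with array weights and 3 to 17 with 1 array left out. It was 17 without cafeteria replicate 5 and 3 without cafeteria replicate 3 or 4 or chow replicate 3 or 4. The count of 2 members whose groups did not overlap was 0 with brighter probe sets alone, which leaves out Prss3 and Prss3bl1, and 2 to 11 with 1 array left out. The dim median of 0.28 was 0.43 with the probe set of largest SD. Of the 10 genes most like the members, 6 were shared with Spearman's rho and 6 with profiles centred within each diet. The 8 sign changes with the covariate are in genes that form it, whose differences balance near 0 by construction. Otherwise, except where the alternative itself left out probe sets or arrays, the cause was not tested. No paired analysis was possible because the labels give no replicate numbers shared by the diets. Values of dim probe sets lie near background, where differences are compressed.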
